A study of Rattus norvegicus with 6 samples.

Results

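The CpG sites described here lie inside introns, away from promoters, exons, CpG islands and island shores, in rat dorsal root ganglia after nerve injury. They were chosen from the deposited annotated site table as the nuclear rows flagged as intron and not as exon, promoter, island or shore, which gave 7378 of 32674 sites (22.6%). Of 9018 sites with an intron flag, 886 were also promoter and 56 also exon, and a further 698 lay in an island or shore. The rats were male Sprague-Dawley animals aged 8 to 9 weeks. Spinal nerve ligation (SNL), which serves as a pain model, consisted of tying the L5 and L6 nerves on the left. The Sham group had surgery without a ligature on the contralateral side, per the labels' protocols. Each group holds 3 libraries of dorsal root ganglion DNA, all from 3 weeks after the procedure, and the labels name no transgene and no agent other than isoflurane anaesthesia. They name no sorting of cells and do not say which ganglia were taken, so each value averages over sensory neurons, satellite glia, Schwann cells, immune and vascular cells. A change in methylation within a cell type and a change in the mix of cells cannot be told apart here.

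A CpG is a cytosine followed by a guanine, and most CpGs in vertebrate gene bodies carry a methyl group placed by the DNA methyltransferases. Active promoters and islands are generally free of the mark. Introns hold many of the enhancers of mammalian genes, and an enhancer bound by transcription factors usually has a lower methylation level than the DNA around it. Reduced representation bisulfite sequencing reads the ends of MspI fragments, and the methylation level of a site is the percent of reads that kept a cytosine after bisulfite conversion.

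The 7378 intronic sites were assigned to 3001 nearest genes by the distance to the nearest transcript start in the deposited table. A gene name below therefore means the nearest start, and the intron can belong to another transcript, which must hold for the 1064 sites (14.4%) that lie upstream of the named start. The median distance was 35.3 kb, 1252 genes had 1 such site and 52 genes had 10 or more, up to 22. Summed coverage per library was between 27247702 and 34293779 reads over all listed cytosines. At the intronic sites the median coverage was 190 to 227 reads per library, with a minimum of 100 reads. The libraries carry replicate numbers without a statement that each came from its own animal, so the p-values cannot be read as measuring spread between animals. They rest on library-to-library spread, part of which may be technical. In the tests of read counts that spread is moderated across sites or gene sums, so it is not that of a single site alone.

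The libraries did not all stand equally far from each other. Over the 22 intronic sites whose values spanned more than 30 percentage points within a group, SNL replicate 2 and Sham replicate 2 differed by a median of 2.4 points and lay within 15 points of each other at 21 of the 22. SNL replicate 3 and Sham replicate 1 also differed by a median of 2.4 points and lay within 15 points at 21 of the 22. For the other 13 pairs of libraries the median gap at these sites was between 5.4 and 40.4 points. The sites were chosen for their spread within a group, a choice that by itself sets libraries of the same group apart. Among the other pairs of an SNL and a Sham library the median gap was between 5.4 and 40.1 points. Over all 7378 intronic sites the median gaps of these pairs were 2.34 and 2.49 points. The closest pair there, Sham replicates 2 and 3 of the same group, had 2.17 points. Between an SNL and a Sham library the median gap ran from 2.34 to 2.65 points, and it was lowest for SNL replicate 2 and Sham replicate 2. The site assigned to Itpr1, the inositol trisphosphate receptor of the endoplasmic reticulum (chromosome 4, position 143833568), is an example of the 22 sites of wide spread. Its level was 0, 85.6 and 48.4% in SNL replicates 1 to 3 and 46.4, 93.1 and 5.58% in Sham replicates 1 to 3. At Arhgap45, a GTPase-activating protein (chromosome 7, position 11192745), the levels were 0.52, 98.3 and 1.19% after SNL and 0, 98.4 and 47.8% in Sham. At both of these sites each group contains high and low libraries. At 7 of the 22 sites SNL replicate 1 alone stood more than 20 points from all other libraries, and Sham replicate 3 did so at 1. None of the 22 sites was called different between the groups by the moderated test described below (4 had an unadjusted p under 0.05), whereas the fit over all sites with 20 reads or more called 3. Since the sham operation was contralateral, SNL and Sham libraries may share animals, which was not tested. The tests below treat the 6 libraries as independent. The total counts of called intronic sites and of called gene sums are also given without single libraries.

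**Figure D1:**
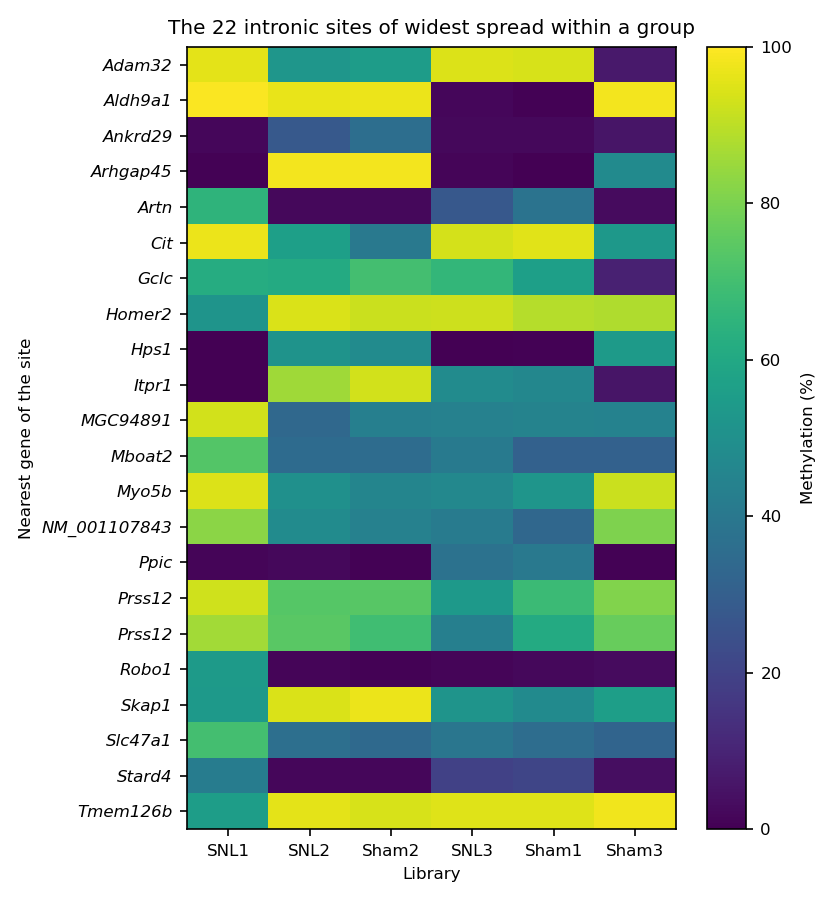
Methylation in percent (colour scale, 0 to 100) at the 22 intronic sites whose values span more than 30 points within SNL or within Sham, 1 row per site named by its nearest gene, 1 column per library. SNL2 and Sham2 match in colour along the rows, as do SNL3 and Sham1, with 21 of 22 sites within 15 points for each of these pairs.

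The question of the comparison is where methylation in the ganglion differs after nerve ligation. Intronic CpGs were highly methylated in both groups. Their mean level was 76.94, 75.67 and 75.19% in SNL replicates 1 to 3 and 76.13, 76.9 and 77.12% in Sham replicates 1 to 3. The groups overlapped, because SNL replicate 1 was above Sham replicates 1 and 2. With n = 3 each, the SNL mean was 75.93% ± 0.9 and the Sham mean 76.72% ± 0.52 (SD), so that SNL minus Sham was -0.79 points ± 0.6 (SE; exact two-sided permutation p = 0.3, adjusted p = 0.375 over 15 class means). With 3 libraries against 3 an exact p cannot fall below 0.1. In Sham, 62.1% of the sites had a level over 80%, 32.9% lay between 20 and 80%, and 5.08% were under 20%, with a median of 86.3%. A level over 80% in all 6 libraries was found at 3945 sites.

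Against the neighbouring annotation classes, intronic sites stood slightly above intergenic and below exonic sites outside islands and shores. The 1011 exonic sites averaged 81.53% after SNL and 81.81% in Sham, and the 19101 intergenic sites averaged 74.75% and 75.95%. The gap of intronic over intergenic sites was 1.2, 1.21 and 1.15 points in SNL replicates 1 to 3 and 0.68, 0.84 and 0.77 points in Sham replicates 1 to 3. All SNL gaps were above all Sham gaps, by 0.42 points on average (exact permutation p = 0.1, the smallest possible, adjusted p = 0.2 over 4 gaps). The gap of intronic to exonic sites was -5.3, -5.62 and -5.87 points after SNL and -5.23, -5.05 and -4.98 points in Sham. Every SNL gap was again outside the Sham range, with a difference of -0.51 points (exact permutation p = 0.1, adjusted p = 0.2). The mean difference SNL minus Sham was -0.28 points in exonic, -0.79 in intronic and -1.21 points in intergenic sites.

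Methylation was lower close to a start. The 116 intronic sites between 1 and 2 kb from the nearest start averaged 59.2% in Sham, and 28.4% of them had a level under 20%. From 2 to 5 kb the Sham mean was 73.8%, from 20 to 50 kb it was 76.2%, and from 200 to 500 kb it reached 82.3%. The profile after SNL had the same shape, with 58.5, 72.9, 75.5 and 81% in those bins. Sites up to 5 kb from a start minus sites beyond 100 kb gave -9.13 points over the 6 libraries, and in that gap the groups overlapped (exact permutation p = 0.4, adjusted p = 0.4). Local CpG density went with the level only at its upper end. The 64 sites with 6 or more other listed CpGs within 100 bp averaged 51.7% in Sham, whereas sites with none, 1 to 2 or 3 to 5 such neighbours averaged 76.1, 77.3 and 77.7%.

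**Figure D2:**
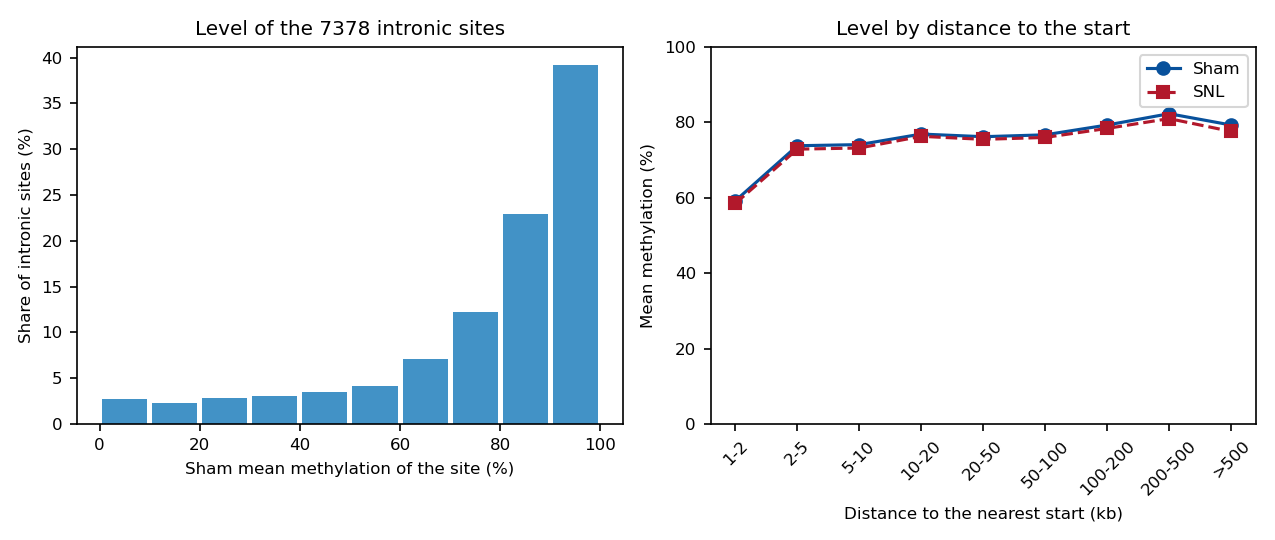
Left, share of the 7378 intronic sites in percent by Sham mean methylation in bins of 10 points. Right, mean methylation in percent of Sham and SNL by distance to the nearest start in kb, each point the mean over the sites and libraries of a group, rising from 59.2% at 1 to 2 kb to 82.3% at 200 to 500 kb in Sham.

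A small set of intronic sites was unmethylated in every library. Below 20% in all 6 libraries stood 282 sites of 177 genes, 74 of them within 5 kb of the start, and 1 of the 282 was called. Among them were 9 sites about 1.1 kb from the start of Usp49, a deubiquitinase of histone H2B, with means of 1.2% after SNL and 1.3% in Sham. Lrrc4c, a netrin-G ligand of the synaptic surface, had 5 such sites 1326.1 kb from its start, with means of 2.1 and 1.8%.

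At single sites, 115 of 7378 intronic CpGs (1.56%) differed between SNL and Sham at an adjusted p under 0.05, by a logistic test of methylated read counts with the spread between libraries moderated across sites. Over all 32674 annotated sites the share was 1.42%, so the intronic share was near the background. Methylation fell at 93 intronic sites (1.26%, against 1.24% of all sites) and rose at 22 (0.298%, against 0.181%). The share of losses among calls was 80.9% in introns and 89.4% among the other annotated sites. That direction depends on the scaling. With a term for each library's mean level, which moved SNL against Sham by -0.11 on the log2 odds scale, 65 intronic sites fell and 53 rose, while 1.22% of all sites were called. Relative to that shift losses made up 55.1% of the intronic calls and 60.2% of all calls. Losses had a median of -11.3 points and ranged from -2.8 to -37.1, with 56 of at least 10 points and 10 of at least 20. Gains had a median of 11.3 points and ranged from 5 to 21.2, with 14 of at least 10 points.

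The count of calls depended on single libraries. It was 125 without SNL replicate 1, 58 without SNL replicate 2 and 81 without SNL replicate 3, and 70, 71 and 31 without Sham replicates 1, 2 and 3. In all 6 of these fits 24 of the losses and 3 of the gains stayed called. The per-site F test without moderation and limma on logit values each called 0 intronic sites, with 460 and 771 at an unadjusted p under 0.05, against 1006 (13.6%; all sites 13.1%) in the moderated test. A q-value under 0.05 in the authors' deposited table was listed for 349 intronic sites (4.73%), against 4.54% of all sites. The 3 libraries of a group did not overlap with the other 3 at 935 sites in the downward direction (12.7%, against 13.2% of all sites) and at 382 upward (5.18%, against 4.64%).

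Called sites were found across levels, distances and chromosomes, and the called changes were smaller where coverage was deeper. Among sites with a lowest coverage of 100 to 150 reads 0.527% were called, with a median change of 18.9 points in size, whereas among those with 500 reads or more 5.88% were called, with a median of 6.6 points. The shares over all annotated sites at these coverages are not given here. Neither share can therefore be set against the 1.42% of all sites. Within 5 kb of a start 11 of 655 sites fell and 0 rose (1.68% called). Beyond 100 kb 27 of 1758 sites fell and 4 rose (1.76% called, against 1.42% of all sites). The moderated test called 0 of the 40 sites on chromosome X and 0 of the 223 on chromosome 11, with 7 and 26 at an unadjusted p under 0.05, 0 and 4 called in the fit over all sites with 20 reads, and 1 and 3 by the authors' q-values, and the share was 2.64% on chromosome 1 and 2.81% on chromosome 16. The X-linked sites averaged 79.42, 78.59 and 77.53% after SNL and 79.54, 80.6 and 80.5% in Sham, so the SNL libraries were all lower, by 1.7 points on average (SNL minus Sham -1.7, exact permutation p = 0.1, adjusted p = 0.375). Of the losses, 54 began at a Sham level between 20 and 80% and 37 above 80%.

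**Figure D3:**
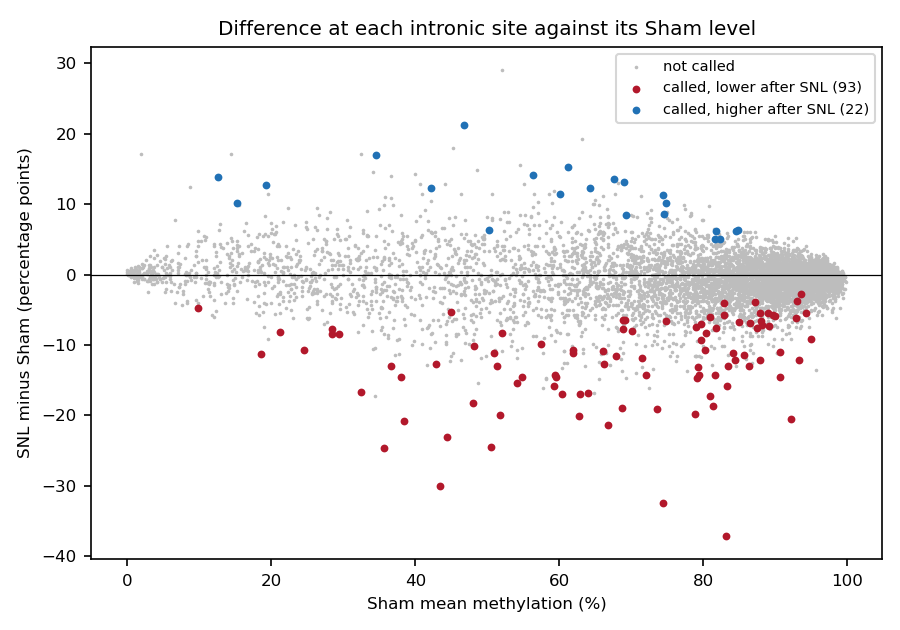
SNL minus Sham in percentage points against the Sham mean methylation in percent for each of the 7378 intronic sites, with the 93 called losses in red, the 22 called gains in blue and sites not called in grey. Called losses reach -37.1 points and called gains 21.2 points.

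The deepest losses lay near genes of varied function. Scarna3 is a small Cajal body RNA, and the site 24.9 kb past its start (chromosome 6, position 103389073) had 58.9, 37.3 and 42.1% after SNL against 84.8, 79 and 85.7% in Sham. The groups were far apart, with SNL replicate 1 nearest to Sham, and SNL minus Sham was -37.1 points ± 6.9 (SE, 105 to 191 reads, adjusted p = 0.000348). In an intron 39.9 kb past the start of Insr, the insulin receptor (chromosome 12, position 2974845), the levels were 20.8, 7.58 and 12.3% after SNL and 39.6, 37 and 53.9% in Sham, a loss of 30 points (difference -30, ± 6.5 SE, adjusted p = 0.00133). Rbfox2 encodes a regulator of neuronal splicing, and its site 99 kb from the start (chromosome 7, position 115285571) had 13.6, 11.6 and 7.77% against 42.9, 30.4 and 33.6%. That difference of -24.7 points ± 4.1 (SE, adjusted p = 0.00252) rests on 102 to 121 reads per library.

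The loss with the lowest p lay in the region of Hip1, a clathrin-binding adaptor of endocytosis (chromosome 12, position 22310967, 23.1 kb past the start). Its levels were 28.6, 25 and 24.3% after SNL and 52.6, 46.8 and 52.1% in Sham, read 887 to 1223 times per library. The difference of -24.5 points ± 2.3 (SE) had an adjusted p of 3.13e-07, and between 9.57e-08 and 1.57e-05 without any library in turn. Mdfic encodes a MyoD family inhibitor domain protein, and its site 8.3 kb past the start (chromosome 4, position 41250115) had 22.5, 22.3 and 19.3% against 43.3, 41.4 and 48.5%, a difference of -23 points ± 2.4 (SE, adjusted p = 0.000106). Both sites had narrow ranges within each group. The lack of overlap between the groups was a condition for naming them.

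Transcription factor, junction and receptor genes were among the remaining named losses. Foxp1, a forkhead transcription factor, had 47, 37.5 and 43.3% after SNL and 64.3, 61.2 and 62.7% in Sham (chromosome 4, position 133857074, adjusted p = 0.000704). A second site 4 bp away stood at 27.4% ± 1.6 against 33.4% ± 0.4 (SD, n = 3; adjusted p = 0.238), a much smaller difference than at its neighbour. Lmo7, a LIM domain protein of actin and cell junctions, had 19.5, 18.3 and 15.2% against 34.8, 36.4 and 44.2% (chromosome 15, position 85846451, adjusted p = 0.000704). At Cd44, the hyaluronan receptor, the levels were 60.1, 59.2 and 57.8% against 73.9, 80.7 and 82% (chromosome 3, position 88092937, adjusted p = 0.00729). The SNL libraries were close together there, but the call was lost without Sham replicate 3 (adjusted p = 0.0628). Tgfbr3, the TGF-beta co-receptor betaglycan, had 38.5, 33.3 and 23.5% against 49.6, 56.9 and 48.8% (chromosome 14, position 3195557, adjusted p = 0.0423). It kept its call only in the fit without SNL replicate 1 (adjusted p = 0.0206), and with the library term its adjusted p was 0.0516. The site of NM_001102408, whose accession had no symbol, fell by 21.4 points (adjusted p = 0.00641) and had an adjusted p of 0.0538 without Sham replicate 3. The other 9 named losses, including those of Oxa1l and Nubp1 described with their neighbours below, kept their calls without any library in turn.

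Gains were fewer than losses. Cmip encodes an adaptor of receptor signalling, and its site 81.8 kb past the start (chromosome 19, position 47446308) rose from 41.2, 54.9 and 44.1% in Sham to 68.4, 68.5 and 66.9% after SNL. The SNL values were close together and the Sham values spread, and SNL was higher by 21.2 points ± 4.2 (SE, 262 to 501 reads, adjusted p = 0.00123). Cables1, which links Cdk5 and Abl kinases in neurons, had 82.8, 81 and 82.8% after SNL against 66.7, 73 and 67.4% (chromosome 18, position 3478842, adjusted p = 0.000704). Khdrbs3, a neuronal RNA-binding regulator of neurexin splicing, had 71.4, 71.3 and 71.7% against 58.3, 61.8 and 60.2% (chromosome 7, position 106560179, adjusted p = 0.00164). These 3 gains were the named ones that stayed called without any library in turn.

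Genes of several kinds lay nearest to the remaining gains. Mboat2, a lysophospholipid acyltransferase, had 76, 76.5 and 77.1% after SNL against 61.4, 63.8 and 58.3% in Sham (chromosome 6, position 42501516, adjusted p = 0.00703). A site 23 bp before it is among those of wide spread, at 73.2% in SNL replicate 1 and 31 to 40.8% in the other 5 libraries, and a site further on, at position 42502827, rose by 10.1 points (adjusted p = 0.0457). Scd2, a stearoyl-CoA desaturase, had 55.1, 57.2 and 51.3% against 36.8, 50 and 39.9%, where SNL replicate 3 and Sham replicate 2 were close (chromosome 1, position 249366353, adjusted p = 0.0135). Slc29a4, a plasma membrane monoamine transporter, stood low in both groups, at 38.5, 32.4 and 24.9% against 15.8, 23 and 19.1% (chromosome 12, position 12206760, adjusted p = 0.00703), with 1831 to 2471 reads per library. Ppm1l, a protein phosphatase, had 26.8, 29.6 and 22.8% against 11.3, 13.2 and 13.4% (chromosome 2, position 159402176, adjusted p = 0.0137). The remaining 5 gains were assigned to Prpf18, a pre-mRNA splicing factor, Tmem260, Shc4, a receptor tyrosine kinase adaptor, the microRNA gene Mir23b, and Sipa1l2, a Rap GTPase activator, with differences of 11.3 to 16.9 points and adjusted p between 0.0188 and 0.0489. At Slc29a4 the sites 9 and 31 bp before the named one rose by 4.8 and 5.5 points (adjusted p = 0.262 and 0.158). At Mir23b the site 6 bp before rose by 5.2 points (adjusted p = 0.445). At Sipa1l2 the site 28 bp on differed by -1.2 points (adjusted p = 0.909). Less deeply read neighbours at Ppm1l rose by 12.7 to 14 points (adjusted p = 0.452 to 0.478 in the fit over all sites with 20 reads). Of the 12 named gains, 8 stayed called without SNL replicate 1, 6 without SNL replicate 2 and 9 without SNL replicate 3, and 5, 10 and 3 without Sham replicates 1, 2 and 3.

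**Figure D4:**
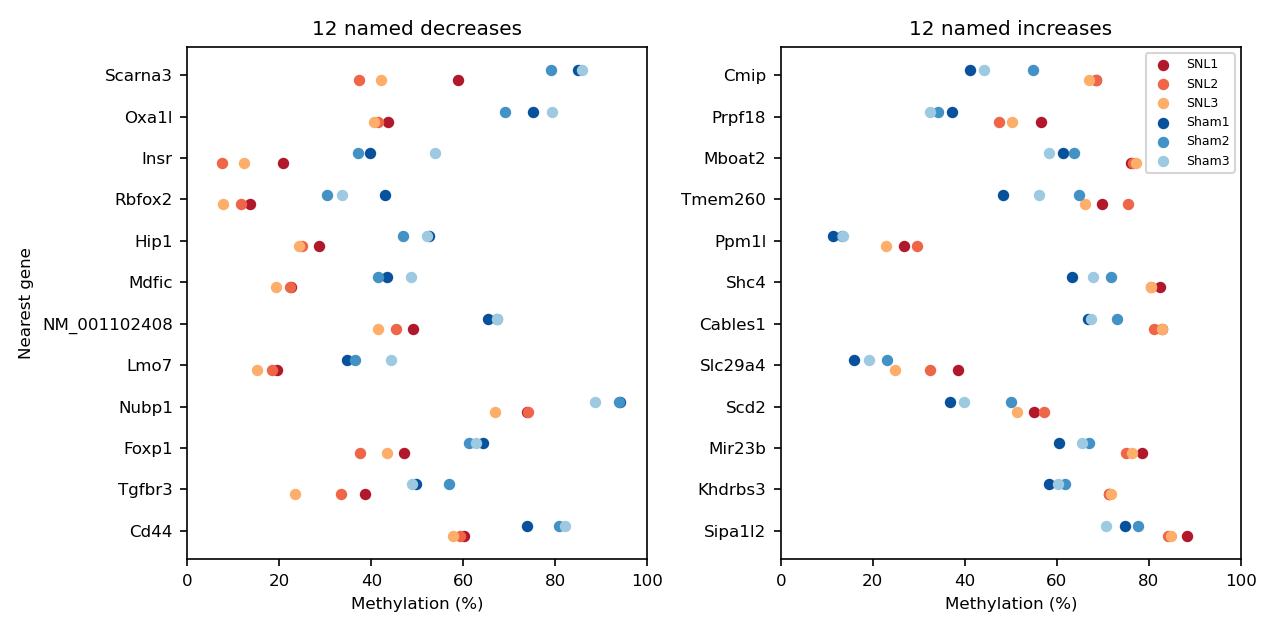
Methylation in percent in each library at the 12 named losses (left) and 12 named gains (right), 1 row per site named by its nearest gene, SNL libraries in reds and Sham libraries in blues. In every row the 3 SNL points and the 3 Sham points occupy separate ranges, which was a condition for naming a site.

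Called intronic CpGs sat next to each other in 8 places, where 21 called sites lay within 100 bp of another, and in each place all of them fell. Single reads can cover several of these CpGs, so the sites of a run share reads and are not independent. At Nubp1, an assembly factor for cytosolic iron-sulfur proteins, all 3 measured sites fell (chromosome 10, positions 5209881 to 5209917, 7.3 kb past the start). The first had 79.1, 78.1 and 71.1% after SNL against 91.4, 92.1 and 88.1% in Sham, and the last had 73.9, 74.1 and 66.8% against 94.1, 93.8 and 88.5%. No library of a group reached the range of the other at any of the 3 sites. At Oxa1l, an insertase of the inner membrane of mitochondria, 3 sites fell (chromosome 15, positions 32443421 to 32443465). The middle site had 43.6, 41.5 and 40.6% against 75.1, 69 and 79.2% (-32.5 points ± 3.1 SE, 100 to 209 reads, adjusted p = 8.34e-05), and the outer ones fell by 14.6 and 19.1 points. The Sham level itself climbed from 38% at the first site to 74.4% at the second, 31 bp on.

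Ikbkb encodes the beta catalytic subunit of the I-kappa-B kinase, the activator of NF-kappa-B. Its 4 measured intronic sites all fell (chromosome 16, positions 73818895 to 73818926), by 14.7, 11.1, 9.2 and 15.9 points. At the last of them the levels were 72.9, 64.1 and 65.2% after SNL and 84, 83.1 and 82.7% in Sham (adjusted p = 0.00539), and it alone of the 4 stayed called without any library in turn. Ank3 encodes ankyrin-G, which anchors sodium channels at the axon initial segment and nodes of Ranvier. Of its 20 intronic sites, 2 neighbours 45.5 and 45.6 kb from a start fell (chromosome 20, positions 19782623 and 19782672). The second had 26.5, 23.3 and 21.4% against 31.5, 37.9 and 40.6%, read at least 1233 times per library (adjusted p = 0.000504). The Sham means of the 20 sites ranged from 3.1 to 99.1%, and the other 18 were not called.

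Of the other 4 runs, those of Insr and Rbfox2 had 2 sites each, Asz1, a germ cell protein of the piRNA pathway, had 3 sites 183.8 kb from its start, and Nell1, a secreted glycoprotein, had 2. In all 6 fits with a library left out, the 2 Nell1 sites and the 3 Nubp1 sites stayed called. The 3 Asz1 sites stayed called in 3, 3 and 1 of those fits. At Insr and Rbfox2 the named site stayed called in all 6, and its neighbour in 3 and 1. The outer sites of Oxa1l stayed called in 1 and 3, and the first Ank3 site in 4. At Nell1 the losses were small and deeply read, with 82.3, 82.5 and 80.7% against 90.8, 88.3 and 88.3% at the first site (chromosome 1, position 100130614, adjusted p = 0.00109, at least 956 reads). In general, neighbouring intronic sites moved alike only over short distances. Across pairs of next neighbours the correlation of the difference was 0.58 over 1702 pairs 2 to 25 bp apart, 0.51 over 927 pairs 26 to 100 bp apart, 0.2 over 161 pairs further apart but within 1000 bp, and 0.04 over 366 pairs beyond that but within 10000 bp. These are descriptions across pairs that share libraries and, when close, reads.

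**Figure D5:**
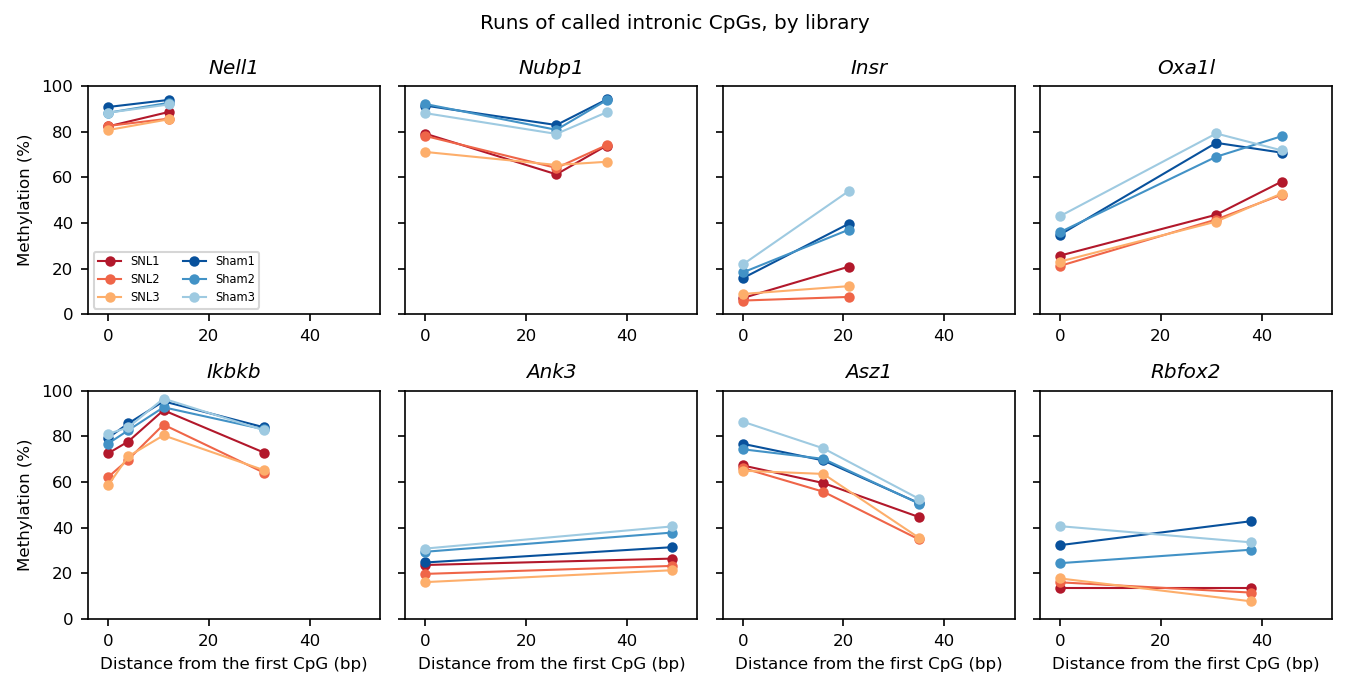
Methylation in percent in each library along the 8 runs of called intronic CpGs, against the distance in bp from the first CpG of the run, SNL libraries in reds and Sham libraries in blues. The SNL lines lie below the Sham lines in all 8 panels, by 6.2 to 32.5 points at single sites.

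Reads were also summed over the intronic sites of each gene. Of 3001 gene sums 18 (0.6%) were called, against 0.625% of all 9597 sums of intronic or other sites, with 16 lower (0.573% of all sums were lower) and 2 higher (0.0521% of all sums). The 2 gains, Khdrbs3 and Cables1, rest on 1 site each. All 14 called genes with 2 or more intronic sites fell. Nubp1 had summed levels of 71.4, 72.1 and 67.8% after SNL against 89.5, 88.9 and 85.2% (adjusted p = 0.00766) and was the only called gene sum that stayed called without any library in turn. The sum of 7 sites of Prkg1, the cyclic GMP-dependent protein kinase, fell from 87.7, 87.5 and 88.6% in Sham to 80.9, 82.4 and 81.9% (adjusted p = 0.0106). Of the 7 sites, 6 had a lower SNL mean and 2 were called, with differences from -9.3 to 0.4 points. The sum of the 4 Hip1 sites fell from 74.3, 66.4 and 70.6% to 54.8, 48.1 and 52% (adjusted p = 0.011). That sum rests on the 1 called Hip1 site already described, since the median difference of the 4 sites was -1.8 points.

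The other 3 gene sums named were those of Oxa1l (5 sites, fell by 12.9 points), Nell1 (4 sites, fell by 6 points) and Mdfic (3 sites, fell by 16.5 points), with adjusted p of 0.0106, 0.0106 and 0.0178. Called sites made up 3 of the 5 at Oxa1l, 2 of the 4 at Nell1 and 1 of the 3 at Mdfic. The count of gene sums also depended on single libraries. Without SNL replicate 1 there were 34 calls, without SNL replicates 2 and 3 there were 5 and 2, and without Sham replicates 1, 2 and 3 there were 11, 9 and 1. Prkg1, Oxa1l and Hip1 lost their calls without SNL replicate 3 or Sham replicate 3, with adjusted p between 0.061 and 0.0863. Nell1 lost its call without SNL replicate 2, SNL replicate 3 or Sham replicate 3, and Mdfic lost it without any of those or Sham replicate 2, with adjusted p between 0.0594 and 0.107.

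In 3 lists of channels and receptors 1 of 211 intronic sites was called by the moderated test (0.474%, against 1.42% of all sites), a difference of a few sites that was not tested. Of 96 sites in 27 potassium channel genes 0 were called, 12 had an unadjusted p under 0.05, 2 passed in the fit over all sites with 20 reads and 4 by the authors' q-values, and the median difference was -0.8 points, against -0.55 points over all annotated sites and over the intronic sites alike. The lowest p there belonged to Kcnj5, an inward rectifier, with 87.9, 84.5 and 89.4% after SNL against 93.1, 92.8 and 95.3% (adjusted p = 0.0664). Of 73 sites in 22 genes of sodium, calcium, HCN, TRP, acid-sensing and Piezo channels 1 fell, in Asic1, a proton-gated channel of sensory neurons (chromosome 7, position 138427453). It had 57.3, 57.4 and 58.6% after SNL against 73.4, 74.9 and 67.6% in Sham (adjusted p = 0.0291), stayed called in 1 of the 6 fits with a library left out, and a neighbouring site had an adjusted p of 0.149. Among 42 sites in 15 genes of glutamate, GABA, glycine and opioid receptors 0 were called by the moderated test, 7 had an unadjusted p under 0.05 and 1 passed by the authors' q-values, with a median of -1.09 points.

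Of 189 sites in 45 genes of neuronal and synaptic adhesion 5 fell and 0 rose (2.65%, against 1.42% of all sites, median -0.84 points), and whether these shares differ was not tested. Nrcam, an adhesion molecule of nodes of Ranvier, had 2 of the 5, 256.1 kb apart, with 53, 49.6 and 50.9% against 62.8, 60.9 and 62% at the first (chromosome 6, position 63747543, adjusted p = 0.0186) and 49.4, 52.5 and 50.5% against 62.9, 58 and 65% at the second (adjusted p = 0.0394). The others were in Cdh20, a cadherin, Tenm4, a teneurin, and Cntnap5c, a contactin-associated protein, with losses of 7.2, 11 and 6.6 points. Of 94 sites in 25 genes of axon guidance 2 fell (median -0.41 points). Sema7a, a membrane-anchored semaphorin, had 42.8, 50.1 and 42.3% against 55.4, 61.7 and 61% (adjusted p = 0.0131), and Ephb1, an ephrin receptor, had 88.4, 89.8 and 89.3% against 93.4, 92.7 and 92.8% (adjusted p = 0.025). None of these 7 sites stayed called in all 6 fits with a library left out.

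Signalling lists were mixed. Of 43 sites in 16 genes of insulin, IGF, PI3K and mTOR signalling 2 fell, both in Insr, and 1 rose, in Shc4, which had 82.5, 80.4 and 80.5% after SNL against 63.2, 71.8 and 67.8% (adjusted p = 0.0213; list median -1.15 points). Of 69 sites in 25 genes of small GTPase regulation and actin assembly 1 fell and 1 rose (median 0.35 points). Arhgap27, a GTPase-activating protein, had 16.2, 11.8 and 13.6% against 26.2, 26.4 and 21.2% (chromosome 10, position 92544833, adjusted p = 0.00729) and stayed called without any library in turn. Arhgap10, of the same enzyme class, had 91.6, 91.7 and 90% against 85, 83.7 and 85.8% (adjusted p = 0.0135). Of 58 sites in 23 genes of cyclic AMP and protein kinase C signalling 0 were called by the moderated test (median -0.46 points), with 7 at an unadjusted p under 0.05, and 1, in Akap12, passed with the library term (adjusted p = 0.0492) and in the fit over all sites with 20 reads (adjusted p = 0.0253). Of 24 sites in 10 nerve injury and regeneration genes 0 were called by the moderated test (median -0.34 points), 5 had an unadjusted p under 0.05, and 1, in Nts, passed by the authors' q-value (0.0151). In the latter list Lifr, a subunit of the LIF receptor, had 63.5, 56.7 and 53.3% against 46.1, 53.1 and 39.9% (adjusted p = 0.122). Of 16 sites in 5 genes of DNA methylation and demethylation enzymes 0 were called by the moderated test and 1 had an unadjusted p under 0.05. That site, in Dnmt3l, had an adjusted p of 0.183 and an authors' deposited q-value of 0.0266.

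For markers of the cell types of the ganglion, methylation gives no direct measure of cell number. Of 39 intronic sites in 6 sensory neuron marker genes 1 was called (2.56%, against 1.42% of all sites, not tested). Of the 39 sites 23 had a lower SNL mean, and the median difference was -0.43 points. The called site, in Ntrk2, the TrkB receptor, rose, with 87, 87.2 and 85.5% after SNL against 78.7, 84.6 and 81.4% in Sham (chromosome 17, position 11733647, adjusted p = 0.047). It stayed called in 1 of the 6 fits with a library left out, the one without Sham replicate 2 (adjusted p = 0.0166), and reached 0.219 without Sham replicate 1. The site 2 bp from it had 92.8, 93.2 and 92.8% against 87, 92.3 and 88.3% (adjusted p = 0.0614). Over all 18 intronic sites of Ntrk2 the median difference was -1.1 points. The moderated test called 0 of 9 sites in 5 Schwann and satellite cell genes, 8 sites in 4 immune cell genes and 12 sites in 2 endothelial and fibroblast genes, and 5 of these 29 sites had an unadjusted p under 0.05. Their median differences were 0.43, -0.32 and -2.03 points. The part of cell mixture in the calls was not tested.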

How the data were processed

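The members and gene lists were chosen with earlier results of these data known. DNA cut with MspI was bisulfite converted and read as single-end 50-base reads, per the labels' protocols, and processed with Bismark 0.18.1, Bowtie2 and methylKit 1.3.3, per the submitters' processing notes. Positions are given as the deposited files list them, as rn4, per those notes, although the protocol text names a human assembly. The deposited files hold coverage as read counts and methylation as a percent per library, and the authors' p-value, q-value and difference per site. Gene symbols were matched by accession in a RefSeq table (GRCr8, names only) for 2806 of 3015 transcripts.

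Methylated counts were recovered as coverage times percent. Each of the 32674 sites, all with 100 reads or more in every library, was fitted with a logistic model on group. The Pearson overdispersion was moderated with limma's squeezeVar, its prior estimated from rows above 0 (13.6 prior degrees of freedom), kept at 1 or above, and tested with a two-sided F test, adjusted by Benjamini-Hochberg over all sites at 0.05. Counts summed over the intronic and over the other sites of each gene were fitted together. Intervals between libraries are SD, and SE is that of the difference of group means. Means were compared by exact permutation over 20 arrangements. The script was tested on simulated data. Named sites are the 12 largest called changes in each direction without overlap between groups, 1 per gene, the 6 gene sums of lowest p per direction with 2 or more sites, and the 2 sites of lowest p of each list. Other called sites, the sites below 20%, those of wide spread and the runs were picked with their values in view. The replicate numbers were checked as pairs: deviations of same-numbered libraries correlated at -0.056, 0.263 and -0.137, so they were not used as pairs. The highest such correlation, 0.326, was between SNL replicate 3 and Sham replicate 1. No sequences were read, since no genome of that build was used here. The fits ran in R 4.3.3 with limma 3.58.1, and the rest in Python. A few genes are not reported here by name.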

Additional observations from a re-analysis of the deposited data

How the results depend on the processing

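The intronic mean difference, -0.79 points, lay between -1.29 and -0.41 without single libraries, and the gaps to intergenic and exonic sites lay between 0.38 and 0.46 and between -0.66 and -0.37 points; all kept their direction under every alternative run for them. Counts moved. Called sites (115, of which 93 lower and 22 higher) ranged from 31 to 125, with 27 to 111 lower and 4 to 28 higher, without single libraries. They numbered 63 (52 and 11) at a coverage of 200 or more, where fewer sites were tested, 205 (147 and 58) when fitted with all sites of 20 reads or more, and 349 (279 and 70) by the q-values of the authors' deposited table (4.73% of intronic and 4.54% of all sites). With library offsets higher calls rose to 53. Unmoderated F tests and limma gave 0 sites (0 lower, 0 higher) and 0 gene sums, with 258 and 441 gene sums at an unadjusted p under 0.05, against 383 in the moderated test. The causes were not tested. Gene sums called (18, of which 16 lower and 2 higher) ranged from 1 to 34, with 1 to 31 lower and 0 to 3 higher, without single libraries; higher sums were 6 with offsets and 4 at a coverage of 200. The replicate block, on numbers that only name libraries, gave 92 sites (72 lower, 20 higher) and 8 gene sums (8 lower, 0 higher). Chosen after seeing the data, a prior that includes rows of 0 overdispersion gave 103 sites (86 lower, 17 higher) and 18 gene sums, and leaving out the 22 sites of wide spread left 115. Of the 12 named losses, 9 kept their call in all 6 fits without a library, as did 3 of the 12 named gains. Depth limits small changes: at 100 to 150 reads the median called change was 18.9 points.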

Other observations

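Near Slc6a5, the neuronal glycine transporter gene (chromosome 1), 4 intronic CpGs spaced 4 bp apart, at positions 99766621 to 99766633, had between 0 and 1.9% in every library, while the site 4 bp before the first, at position 99766617, had 80.3 to 90%. These sites were chosen after their values were seen, and the step was present in SNL and Sham alike.

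In the region of Alox5, the 5-lipoxygenase gene (chromosome 4, positions 152578746 to 152578872, about 79 kb from the start), 10 neighbouring intronic sites had SNL replicate 1 above the other 5 libraries. At the first it was 36.3% in SNL replicate 1 and 17 to 25.5% in the others. The moderated test called 0 of the 10 (adjusted p between 0.158 and 0.388), with 9 at an unadjusted p under 0.05. With the library term 1 was called, and 9 in the fit over all sites with 20 reads. Without SNL replicate 1 the adjusted p of the moderated test was between 0.455 and 0.964. Without SNL replicate 3 it was between 0.0166 and 0.088, and several of the sites were called.

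An intronic site assigned to Cyp2c6v1, a cytochrome P450 gene, lay 153.4 kb from the start of that gene (chromosome 1, position 244012454). It was read 7746 to 11013 times per library, against a median of 190 to 227. Whether the reads of this site come from more than 1 place in the genome was not tested. It had 65, 61 and 62.2% after SNL against 68.8, 67.5 and 71.1% in Sham (adjusted p = 0.000606).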
